A study of Mus musculus with 6 samples.

Results

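The genes described here are 9 genes of the B cell receptor and of B lymphocytes, Cd79a, Cd79b, Cd22, Cd72, Ms4a1, Cd37, Ly6d, Blnk and Btk, measured in inguinal fat. They were taken by name, as every probe that the probe annotation gives to 1 of these symbols alone, which found 1 probe for each of the 9 genes among 14411 probes with a single symbol and 33012 probes in all. Inguinal fat came from high gainers and from low gainers, which were genetically identical male C57BL/6J mice that gained the most or the least on a high-fat diet. All mice of both groups were housed singly while on the diet, which they received from 8 weeks of age and for 4 weeks. Each group is 1 pool of RNA from 8 mice, which was run on 3 arrays. The 3 arrays of a pool repeat the measurement of the same RNA, so that n counts arrays, and the errors and p-values below hold the technical spread and not the spread between mice.

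B lymphocytes recognize antigen with a membrane immunoglobulin that has almost no cytoplasmic part of its own, and the signal is carried by its partner chains, Cd79a and Cd79b. Kinases of the Src family and Syk phosphorylate these chains, the adaptor Blnk then brings Btk and phospholipase C gamma 2 together, and co-receptors such as Cd22 and Cd72 restrain the response. In adipose tissue B cells are found among the stromal cells and in lymphoid clusters, and the inguinal depot of the mouse encloses a lymph node.

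Of the 33012 probes, 18018 to 20605 had a value on the arrays of high gainers and 18444 to 19790 on those of low gainers, and 15821 had one on all 6 arrays. The log2 signals of these probes correlated with r of 0.988 to 0.994 between arrays of the same pool and of 0.972 to 0.980 between arrays of different pools. No array stood apart. Calls needed a difference of at least 1.5-fold and an adjusted p under 0.01 in limma, with the Benjamini-Hochberg procedure over all 15821 probes, which held for 632 probes (3.99%) that were lower and 396 probes (2.5%) that were higher in high gainers. With each array centered on the adipocyte markers in place of the deposited scale, 823 were lower and 161 higher.

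All 9 B cell genes had a value on every array and were lower in the fat of high gainers, by 1.80-fold (Btk) to 4.14-fold (Cd22), with 9 of 9 called lower against 3.99% of all probes. The 9 genes were chosen with earlier results of these data known, so that this count is a description. None of the 9 was higher in limma or by the ANOVA of the methods, which follows at any threshold from log2 ratios that were all negative. For all 9 genes every array of high gainers lay below every array of low gainers, which held for 16.3% of all probes. The median log2 ratio of high over low gainers was -1.58 over the 9 genes and 0.03 over all 15821 probes. These are levels in whole tissue, where fewer B cells and less RNA of these genes in each cell cannot be told apart.

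**Figure D1:**
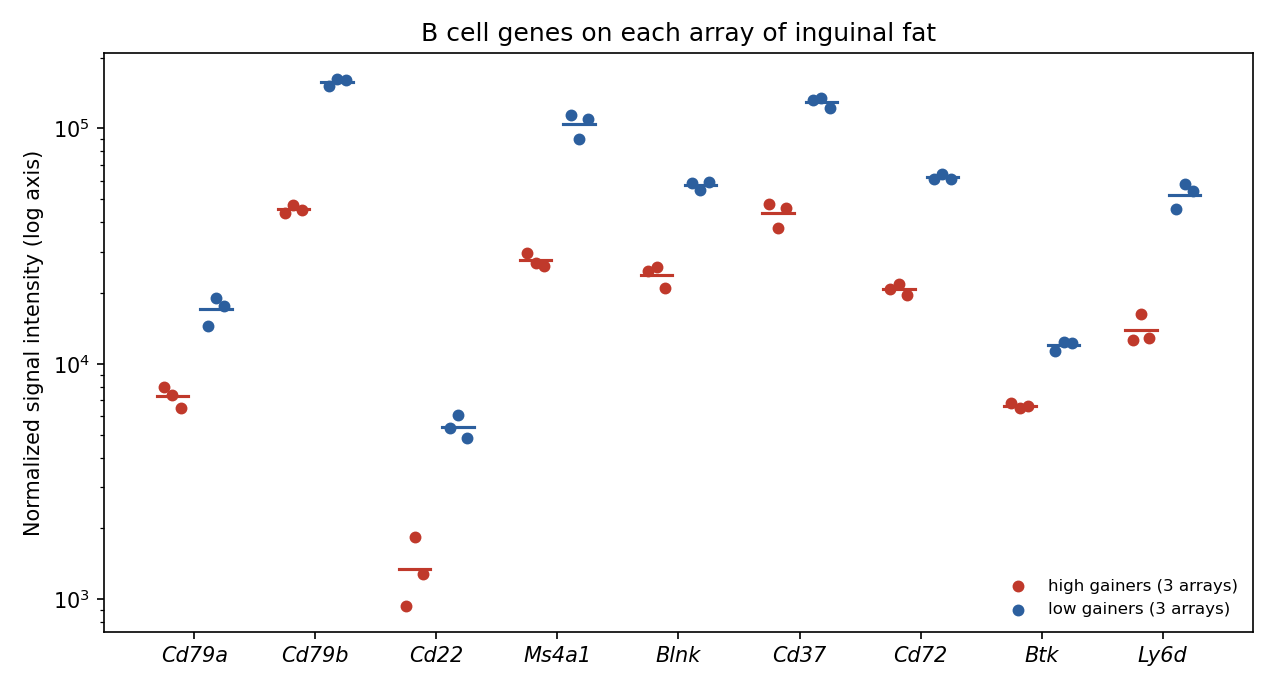
Normalized signal intensity (log axis) of the 9 B cell genes on the 3 arrays of high gainers (red, left of each pair) and the 3 arrays of low gainers (blue). Points are arrays and bars are means. The red and blue points of a gene do not overlap for any of the 9 genes, and heights are not comparable between genes because each has its own probe.

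Both signaling chains of the receptor were lower in high gainers, Cd79b more than Cd79a. Cd79a (chromosome 7), the immunoglobulin alpha chain, had signals of 7975, 7361 and 6476 on the arrays of high gainers and 14419, 19098 and 17683 on those of low gainers. The highest array of high gainers was thus well below the lowest of low gainers, and the ratio was 2.34-fold lower in high gainers (log2 ratio -1.23 with a standard error of 0.14, adjusted p = 0.00127). Cd79b (chromosome 11), the immunoglobulin beta chain, had signals of 43924, 47086 and 44833 in high gainers and 151626, 161668 and 159863 in low gainers. The arrays of each pool lay close together for this gene, and it was 3.48-fold lower in high gainers (log2 ratio -1.80 with a standard error of 0.09, adjusted p = 0.000174). On each array the 2 chains can be set against each other as a log2 difference, and their ratios between the pools differed by 0.57 on the log2 scale, with no overlap between the arrays of high and low gainers (exact permutation test over arrays, two-sided p = 0.1, the smallest that 3 against 3 arrays allow, adjusted p = 0.18 over 36 pairs).

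The sequences before these genes are shown to let the members be compared by what lies at their start sites, and are drawn from RefSeq (GRCm38.p6), from 250 bases before to 50 bases after the start. RefSeq windows were matched for 6 of the 9 genes, Cd79a, Cd22, Cd72, Cd37, Blnk and Btk. The windows of 3 genes are printed in the direction of the gene, of the receptor chain, an inhibitory co-receptor and the adaptor, chosen after their matches were seen. They are Cd79a at chr7:24897247-24897546 (plus strand), Cd22 at chr7:30878979-30879278 (minus strand) and Blnk at chr19:40994172-40994471 (minus strand). Capitals mark matches, on either strand, to the octamer ATGCAAAT, the EBF motif (TCCC and GGGA with any 2 bases between them), the ETS core GGAAGT and the E-box CAGGTG.
Cd79a: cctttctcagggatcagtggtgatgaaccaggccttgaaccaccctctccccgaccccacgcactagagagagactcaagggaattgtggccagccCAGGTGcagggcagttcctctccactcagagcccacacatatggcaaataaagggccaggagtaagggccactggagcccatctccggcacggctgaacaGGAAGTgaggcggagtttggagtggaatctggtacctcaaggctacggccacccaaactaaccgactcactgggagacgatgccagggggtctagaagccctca
Cd22: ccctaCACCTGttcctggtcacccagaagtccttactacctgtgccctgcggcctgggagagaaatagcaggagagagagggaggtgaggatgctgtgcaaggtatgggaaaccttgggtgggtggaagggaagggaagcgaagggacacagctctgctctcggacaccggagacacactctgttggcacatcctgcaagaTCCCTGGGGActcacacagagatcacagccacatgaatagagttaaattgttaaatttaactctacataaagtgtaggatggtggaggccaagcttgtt
Blnk: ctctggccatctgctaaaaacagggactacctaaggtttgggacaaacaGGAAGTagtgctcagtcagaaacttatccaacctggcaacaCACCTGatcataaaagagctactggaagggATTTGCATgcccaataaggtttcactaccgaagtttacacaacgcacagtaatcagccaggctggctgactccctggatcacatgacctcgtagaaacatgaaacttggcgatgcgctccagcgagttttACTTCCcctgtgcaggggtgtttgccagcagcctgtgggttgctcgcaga

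The octamer, the binding motif of the factors Oct1 and Oct2, matched in the window of Blnk alone, against 1.735% of 32851 promoters of the same length. The EBF motif, searched only as TCCC and GGGA with any 2 bases between them, matched in that of Cd22 alone, against 0.904%. Sites that depart from these letters were not searched, so that a window without a match can still hold one. The ETS core matched in 4 of the 6 windows (Cd79a, Cd72, Cd37 and Blnk), against 23.771% of all promoters, and the E-box in 4 (Cd79a, Cd22, Cd37 and Blnk), against 20.212%. In all 11 motifs were searched, and the other 7 are not marked in the sequences. Of these, AGGAAG, which can overlap the ETS core, matched in 5 windows (Cd79a, Cd72, Cd37, Blnk and Btk) against 35.351% of all promoters, and GAGGAA, which can overlap AGGAAG, in 4 (Cd79a, Cd72, Cd37 and Btk) against 28.276%. The RUNX motif TGTGGT (16.761%), the NF-kappa B motif (0.155%), the interferon response element (0.253%), the ETS-IRF composite (0.731%) and the MEF2 motif (0.164%) matched in none of the 6. A match describes the letters and shows no binding.

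The inhibitory co-receptors were lower as well. Cd22 (chromosome 7), a sialic acid-binding lectin that recruits the phosphatase Ptpn6 to the receptor, had signals of 940, 1833 and 1278 in high gainers and 5318, 6063 and 4831 in low gainers. It was 4.14-fold lower in high gainers (log2 ratio -2.05 with a standard error of 0.23, adjusted p = 0.00131). This was the lowest ratio of the 9 genes on the deposited scale with all arrays, but not without high gainers replicate 1 (log2 ratio -1.81, against -1.98 for Ms4a1) or without low gainers replicate 2 (-1.96, against -2.03 for Ms4a1), and with the 10th percentile of the signals added before log2 it was -0.98. Cd22 was also the only dim probe among the 9 genes, with a mean signal in the lowest 33.3% of all probes, and its arrays of high gainers had a coefficient of variation of 33.4%. Cd72 (chromosome 4), a C-type lectin that also recruits Ptpn6, had signals of 20769, 21924 and 19661 in high gainers and 60966, 64277 and 61040 in low gainers. Its arrays were tight in both pools, and it was 2.99-fold lower in high gainers (log2 ratio -1.58 with a standard error of 0.09, adjusted p = 0.000174).

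Among the surface antigens, Ms4a1 and Ly6d had lower ratios than Cd37. Their log2 differences from Cd37 overlapped between the arrays of high and low gainers, so that the arrays do not separate these ratios. Ms4a1 (chromosome 19), which encodes CD20 of mature B cells, had signals of 29668, 26799 and 25981 in high gainers and 114104, 90351 and 109495 in low gainers. It was 3.79-fold lower in high gainers (log2 ratio -1.92 with a standard error of 0.12, adjusted p = 0.000206), and the array of low gainers with the lowest signal was still far above all 3 of high gainers. Ly6d (chromosome 15), a GPI-anchored protein that marks commitment of mouse lymphoid progenitors to the B lineage and is also made by squamous epithelia, had signals of 12665, 16211 and 12937 in high gainers and 45280, 57793 and 53993 in low gainers. It was 3.76-fold lower in high gainers (log2 ratio -1.91 with a standard error of 0.14, adjusted p = 0.000309). Cd37 (chromosome 7), a tetraspanin most abundant on mature B cells and present on other leukocytes, had signals of 47747, 37737 and 45870 in high gainers and 131493, 134814 and 122272 in low gainers. The pools were again clearly apart, with a level 2.97-fold lower in high gainers (log2 ratio -1.57 with a standard error of 0.12, adjusted p = 0.000309).

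The transducers inside the cell had ratios nearer to 1 than most of the surface proteins, but Cd79a (log2 ratio -1.23) was nearer than Blnk. The log2 differences of Blnk from Cd79a and from Cd37 overlapped between the arrays of high and low gainers. Blnk (chromosome 19), the adaptor that links Syk to Btk and is also made by macrophages, had signals of 24733, 25878 and 21005 in high gainers and 58564, 54772 and 59040 in low gainers. It was 2.42-fold lower in high gainers (log2 ratio -1.27 with a standard error of 0.11, adjusted p = 0.000473). Btk (chromosome X), the Tec family kinase that activates phospholipase C gamma 2 and is also made by myeloid cells, had signals of 6830, 6519 and 6613 in high gainers and 11383, 12402 and 12224 in low gainers. Its arrays were the tightest in high gainers and its ratio was the smallest in size of the 9 genes, 1.80-fold lower in high gainers (log2 ratio -0.85 with a standard error of 0.09, adjusted p = 0.000947). At a 2-fold threshold Btk was the member that was not called.

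The 9 folds were not uniform. The log2 ratios ran in the order Cd22, Ms4a1, Ly6d, Cd79b, Cd72, Cd37, Blnk, Cd79a and Btk, with a standard deviation over the genes of 0.39, against a median standard error of 0.12 for 1 gene. The standard deviation was 0.35 without high gainers replicate 1 and 0.45 without high gainers replicate 2. The log2 difference between neighbours in this order overlapped between the arrays of high and low gainers, except for Cd79b with Cd72 and for Cd79a with Btk. To test each gene against the mean of the 9 genes, itself included, the mean log2 signal of the 9 was subtracted on every array. All probes were then fitted by limma again. On this scale Btk was higher than the mean of the 9 genes by 0.73 (95% interval 0.48 to 0.97, adjusted p = 0.000138), so that its level in high gainers was reduced by less. It was the 1 gene of 9 called, where 97% of all probes were called, since nearly all probes differ from genes with so low a ratio. Cd79a (0.35, adjusted p = 0.0284) and Blnk (0.30, adjusted p = 0.0292) were not called on the same side, nor were Ly6d (-0.34, adjusted p = 0.0278), Ms4a1 (-0.35, adjusted p = 0.0404), Cd79b (-0.22, adjusted p = 0.0572) and Cd22 (-0.47, 95% interval -0.95 to 0.005, adjusted p = 0.0527) on the other. Cd37 and Cd72 lay at the mean, with 95% intervals of -0.33 to 0.34 and -0.23 to 0.23 on the log2 scale. Without high gainers replicate 2 Cd22 was called as well, and without low gainers replicate 2 Ms4a1. Where the 10th percentile of the signals was added before the log2 transformation, 6 of the 9 were called and Cd22 moved to the other side of the mean, at 0.36.

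**Figure D2:**
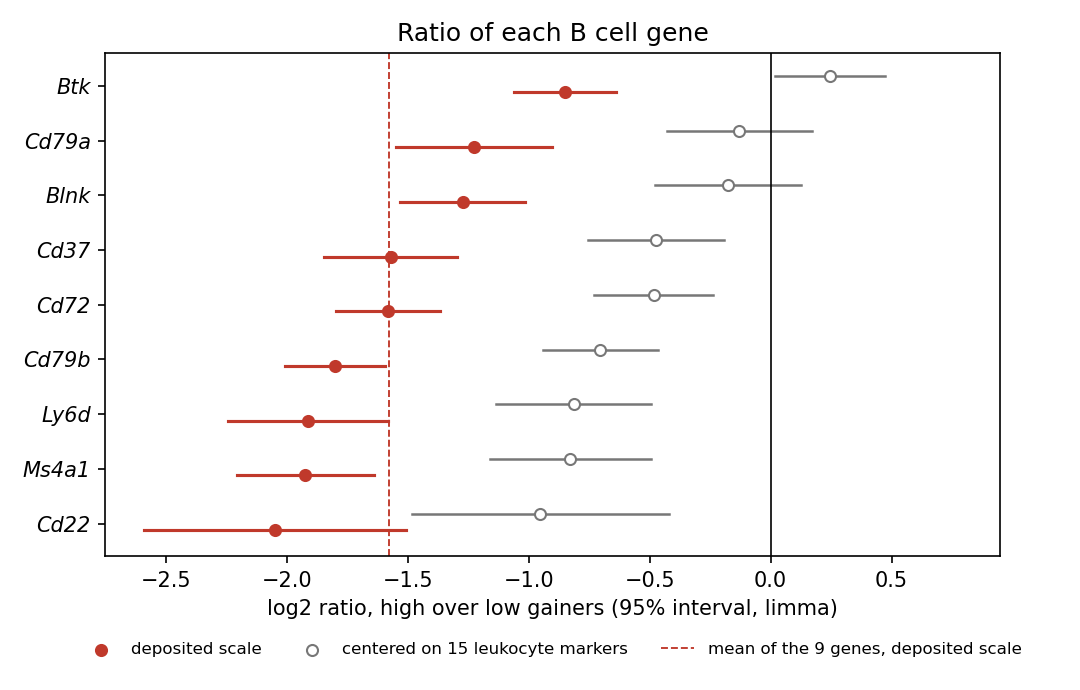
Log2 ratio of high over low gainers for each B cell gene with its 95% interval from limma, on the deposited scale (filled red) and after centering each array on 15 leukocyte markers (open gray). The dashed line is the mean of the 9 genes, -1.58, the vertical line is a ratio of 1, and Btk lies nearest to it on the deposited scale.

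The genes were also compared pair by pair. Of the 36 pairs of B cell genes, 20 (55.6%) had log2 differences that did not overlap between the arrays of high and low gainers, against 37.7% of all pairs of probes. Each of these reached the smallest exact p of 0.1 and an adjusted p of 0.18, so that no pair could reach a p of 0.05 in this design. Btk was apart in 8 of its 8 pairs, Cd79a and Blnk in 6 each, Cd72 in 5, Cd79b and Ly6d in 4 each, Cd22 and Ms4a1 in 3 each and Cd37 in 1. Thus 8 of the 20 pairs were those of Btk, and pairs that share a gene are not independent. Averaged over the 9 genes, the log2 level relative to the mean of low gainers was -1.59, -1.49 and -1.64 on the arrays of high gainers and -0.05, 0.05 and 0.001 on those of low gainers, so that the arrays of a pool differed little. Cd22 varied most on the arrays of high gainers, at -2.52, -1.55 and -2.07, and Btk least, at -0.81, -0.88 and -0.86.

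**Figure D3:**
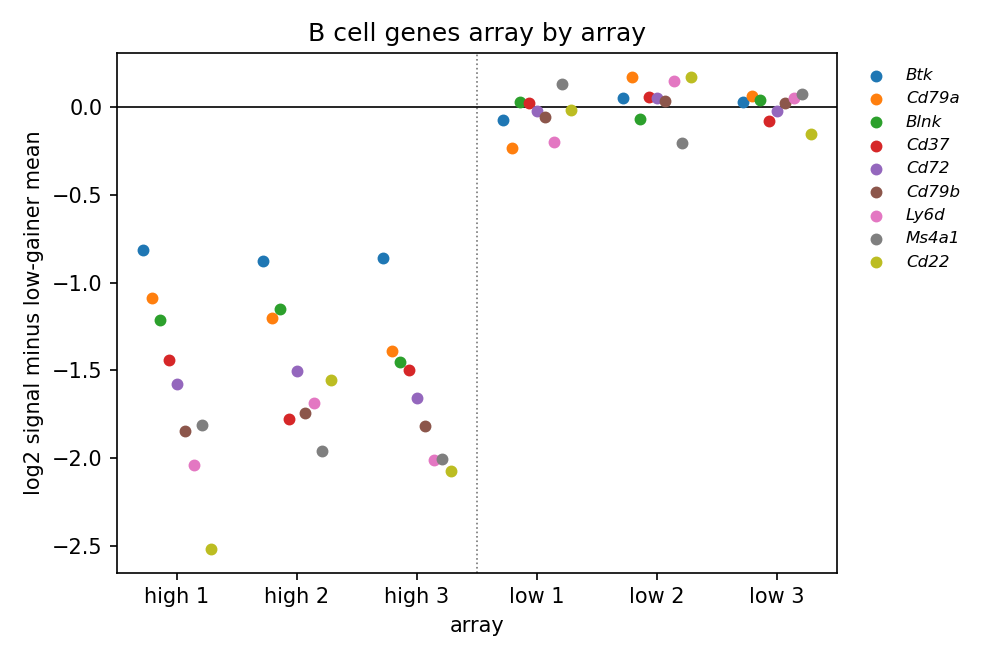
Log2 signal of each B cell gene on each array minus the mean of the gene over the 3 arrays of low gainers, with the arrays of high gainers on the left and those of low gainers on the right. All points of high gainers lie below all points of low gainers, Btk is the highest on each of the 3 arrays of high gainers, and Cd22 spreads from -2.52 to -1.55.

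The other genes of B cells were read from lists chosen by function, with earlier results of these data known. The brightest probe of a gene was taken. Of 80 genes in the 5 B cell lists that are not among the 9, 52 were tested, and 24 were lower and 0 higher in high gainers (limma, 30 lower and 2 higher at an unadjusted p under 0.05, and 0 higher by the adjusted ANOVA of the methods), with a median log2 ratio of -0.66. Among the 11 other B cell markers 10 were lower, with a median of -1.52. Cr2, the complement receptor of B cells, had signals of 8133, 9365 and 8588 in high gainers and 25535, 24231 and 25083 in low gainers, and its log2 ratio was -1.52 (adjusted p = 0.000206). The marker that was not called was Ebf1, a factor of early B cells that adipocyte precursors also make, with 121693, 127092 and 104861 in high gainers and 141819, 102194 and 120992 in low gainers (log2 ratio -0.04, adjusted p = 0.894).

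Of the 18 other genes of B cell receptor signaling 7 were lower, and the median log2 ratio was -0.19. Ptpn6, the phosphatase that Cd22 and Cd72 recruit, had signals of 48009, 46050 and 55096 in high gainers and 133707, 136255 and 124112 in low gainers (log2 ratio -1.40, adjusted p = 0.000312). Syk and Plcg2, which stand directly before and after Blnk and Btk and were chosen after their values were seen, had log2 ratios of -1.02 (adjusted p = 0.00111) and -1.01 (adjusted p = 0.00619). Dapp1, an adaptor of the same pathway, had a log2 ratio of -0.84 from a dim probe and was not called (adjusted p = 0.0355). Of 12 B cell transcription factors 5 were lower, among them Pou2f2 (Oct2, log2 ratio -1.65, dim probe) and its coactivator Pou2af1 (-1.52). The number lower was 3 without low gainers replicate 1 or 3. Ets1 (-0.67, adjusted p = 0.0777, dim probe) was not called. Of 13 survival and homing receptors 7 were lower, among them Tnfrsf13c, the receptor of the survival factor BAFF (log2 ratio -1.80, dim probe), and Cxcr5, the receptor that brings B cells into follicles (-1.72), while Cd86 (-0.59, adjusted p = 0.0157) was not called. Of 7 antibody and plasma cell genes 2 were lower, Mzb1 (log2 ratio -1.83) and Pou2af1. Tnfrsf17, a receptor of plasma cells, had a log2 ratio of 0.38 from a dim probe and was not called (adjusted p = 0.092).

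Some B cell genes had no signal on part of the arrays and enter no ratio. Tnfrsf13b was blank on all 3 arrays of high gainers and had 1486, 1811 and 1423 in low gainers, and Rel was blank on all 3 arrays of high gainers and had 1431, 2222 and 857 in low gainers. Blk, a Src family kinase of B cells, was blank in high gainers and had 2751 and 2915 on 2 arrays of low gainers. The other B cell genes with a blank had signal in both pools. Prdm1, a factor of plasma cells, had 1904 and 2610 on 2 arrays of high gainers and 1794, 2288 and 2270 in low gainers, so that its pools overlapped. Inpp5d, a lipid phosphatase that restrains receptor signaling, had 1159 and 1048 on 2 arrays of high gainers and 2125, 2975 and 1909 in low gainers, and Pik3cd, a lipid kinase of leukocytes, had 1634 on 1 array of high gainers and 2216, 3935 and 2265 in low gainers. All of these signals are dim. Lyn and the immunoglobulin heavy and kappa chains were not analysed here.

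**Figure D4:**
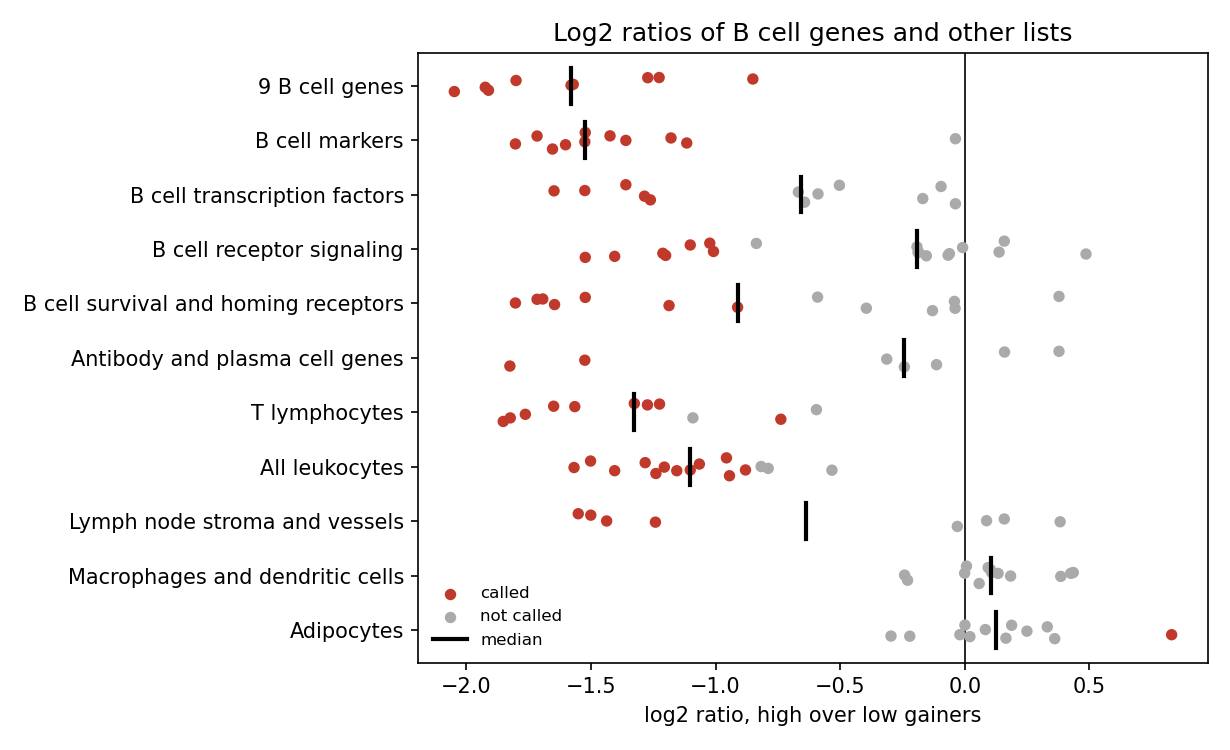
Log2 ratios of high over low gainers for the 9 B cell genes (top row) and for 10 other gene lists without them, 1 point for each gene by its brightest probe. Red points passed the test, gray points did not, and black bars are medians. The medians are -1.58 for the 9 genes, -1.52 for the other B cell markers, -1.33 for T lymphocytes and 0.10 for macrophages and dendritic cells.

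Markers of T lymphocytes and of all leukocytes were mostly lower as well, and so were some of lymph node stroma and vessels. Of 11 T lymphocyte genes 9 were lower in high gainers, with a median log2 ratio of -1.33 and a summed signal of 126482 to 150013 on the arrays of high gainers and 360712 to 416232 on those of low gainers. The largest changes were in Cd3g (log2 ratio -1.85) and Cd8b1 (-1.82), and Cd4 (-1.09, adjusted p = 0.0142, dim probe) was not called. Of 15 genes of all leukocytes 12 were lower, with a median of -1.10 and sums of 718978 to 777159 in high gainers and 1599840 to 1789179 in low gainers. None was at 0. Arhgdib (-1.57) and Rac2 (-1.5) had the lowest log2 ratios of these and Laptm5 (-0.82, adjusted p = 0.0177) was not called. Of 8 genes of lymph node stroma and vessels 4 were lower, led by Glycam1 (-1.55) and Ccl19 (-1.5). Pdpn (0.38, adjusted p = 0.0457, dim probe) was not called, nor were Lyve1 (0.09), Fcgr2b (0.16) and Cr1l (-0.03, dim probe). The sums of this list were 456294 to 485770 in high gainers and 983129 to 1051577 in low gainers. Much of them came from Ccl21a, also lower, with means of 200960 in high gainers and 544682 in low gainers. The part of all these markers in the ratios of the B cell genes was not tested.

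Btk and Blnk are made by macrophages too, and of 13 genes of macrophages and dendritic cells 0 were called in either direction (limma, 0 lower and 3 higher at an unadjusted p under 0.05, and 0 by the ANOVA of the methods). Their median log2 ratio was 0.10 and their sums were 2745349 to 2954644 in high gainers and 2632027 to 2844453 in low gainers, and Cd163 had the largest ratio (0.44, adjusted p = 0.0151). Ly6d is made by epithelia, and of 6 epithelial genes 3 were lower, with a median of -1.24, sums of 33213 to 42509 in high gainers and 66556 to 71807 in low gainers, and 1 lower without dim probes. Krt18 (log2 ratio -2.65) and Cdh1 (-2.07) were the lowest, both from dim probes, and Krt14 (-0.95, adjusted p = 0.0149, dim probe) was not called. Cldn3 (0.19, adjusted p = 0.563) and Jup (0.35, adjusted p = 0.239, dim probe) had positive log2 ratios and were not called either. Epcam had a signal of 1001 on 1 array of high gainers and was blank on the other 2, against 14220, 12152 and 11672 in low gainers. Of 10 skeletal muscle genes 9 were lower, led by Mb (-1.29) and Tnnt3 (-1.16), with a median of -0.86 and sums of 1141782 to 1211381 in high gainers and 2111051 to 2324911 in low gainers, and 4 were lower when the first or second array of high gainers or the third array of low gainers was left out. Of 12 adipocyte genes 1 was higher, Lep (0.83, adjusted p = 0.0035), a call lost in 4 of the 6 fits that leave out an array (either of the first 2 arrays of high gainers, or the first or the third of low gainers), and the median was 0.12 and the sums were 7766654 to 8249154 in high gainers and 7377286 to 7737481 in low gainers. The part of these cells in the ratios of the B cell genes was not tested.

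With each array centered on the mean log2 level of the 15 leukocyte genes, a setting chosen after the data were seen, the ratios were read relative to leukocytes, B cells included, and moved up by 1.10. Over all probes this shift left 93 called lower (0.588%) and 14305 called higher, so that this share is set by the shift. On this scale 4 of the 9 B cell genes were called lower in high gainers. They were Cd22 (log2 ratio -0.95, adjusted p = 0.00358), Ms4a1 (-0.83, adjusted p = 0.000538), Ly6d (-0.81, adjusted p = 0.000475) and Cd79b (-0.70, adjusted p = 0.000187). Cd72 (-0.48) and Cd37 (-0.47) had adjusted p of 0.00217 and 0.00503 but ratios under 1.5-fold. Cd79a (-0.13, adjusted p = 0.352) and Blnk (-0.18, adjusted p = 0.221) were not called, and Btk changed its sign (0.25, adjusted p = 0.0397).

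The genes with a pattern over the 6 arrays most like the mean of the 9 B cell genes were Ifi209, Cr2, Ccl19, Samsn1, Ms4a4b, Fcrl1, Tbc1d10c and Cyp1a1. Their root mean square distances from it were 0.04 to 0.08 on the log2 scale, the smallest among 6513 probes of other genes with 1 symbol and no dim signal. Fcrl1, an Fc receptor-like protein of B cells, had signals of 19570, 18682 and 19575 in high gainers and 59360, 62765 and 59896 in low gainers. Such a likeness rests mostly on the difference between the pools, since the arrays of a pool are repeats.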

How the data were processed

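Expression was measured in inguinal fat in pooled RNA of 8 high gainers and in pooled RNA of 8 low gainers, with 3 arrays for each pool. The arrays were one-color and covered the mouse genome, and signal was read by chemiluminescence. The authors applied quantile normalization to the signals and deposited linear intensities, with blank cells where an array has no value. How each blank relates to the signal to noise filter of the methods was not given in the sources used here. Values were present for 18018 to 20605 of 33012 probes on an array, and the precision is limited by the number of arrays.

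For 15821 probes measured on all 6 arrays, log2 values without a pseudocount or a further normalization were compared by lmFit and eBayes of limma 3.58.1 (R 4.3.3). Calls needed a fold of at least 1.5 and a p under 0.01 after Benjamini-Hochberg adjustment. Deviations from the mean of the 9 genes were fitted over all probes with no fold threshold. Pairs were compared by the exact permutation test over arrays. A dim probe has a mean in the lowest 33.3% of the tested probes.

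Symbols came from the probe annotation (1 for 14411 probes, several for 247, none for 18354). For 14402 probes the symbol was taken from the matching gene in RefSeq genes of GRCm38.p6, whether or not it differed. The genome build of the probes was not given in the sources used here. Both the genes and the lists were chosen with earlier results of these data known, and the lists name genes by function. Named are the 9 genes, the 2 largest called genes of each list in each direction and its largest gene not called, and the 8 genes most alike in pattern, and others were chosen after their values were seen. Not every gene so selected is printed.

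The alternatives were other normalizations and centerings, removal of dim probes, probes with a value on 2 arrays of each pool, an offset before log2, other fold thresholds, the ANOVA of the methods, the array number as a block and each array left out.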

Additional observations from a re-analysis of the deposited data

How the results depend on the processing

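The 9 B cell genes stayed lower in high gainers with each array left out in turn, with 9 called in all 6 fits, and the highest adjusted p was 0.00851 (Cd22). The number called lower was 4 with the adjusted ANOVA of the methods (Cd79a, Cd22, Blnk, Cd37 and Ly6d lost) and 4 after centering on the leukocyte markers, and 8 without dim probes (Cd22 removed) or at a 2-fold threshold (Btk not called). The median log2 ratio of -1.58 was -1.72 after centering on the adipocyte markers, which moved all ratios by -0.14, -1.46 with an offset of 2848, -0.48 after centering on the leukocyte markers, and -1.64 to -1.55 with an array left out. The standard deviation of the ratios was 0.352 to 0.449 with an array left out. Btk was reversed after centering on the leukocyte markers, at 0.25.

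The number of genes that differed from the mean of the 9 was 3 without dim probes (Ms4a1, Btk and Ly6d), 6 with the offset, 2 with the ANOVA of the methods, unadjusted or adjusted (Cd79b and Btk), and 1 to 2 with an array left out. Cd22 was reversed with the offset, at 0.36. Btk was called under all of these. The pairs that did not overlap numbered 20 to 28 with an array left out. The cause of these changes was not tested.

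Over all probes, 632 lower and 396 higher became 111 and 46 with the adjusted ANOVA, 93 and 14305 after centering on the leukocyte markers, 402 and 98 at a 2-fold threshold, and 368 to 493 and 105 to 319 with an array left out. Among the lists, the adjusted ANOVA called 7 of 17 B cell markers (16 in limma), 3 receptor signaling genes and 0 transcription factors lower, and 4 T lymphocyte and 4 leukocyte genes, and without dim probes 3 transcription factors and 5 T lymphocyte genes were lower.

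Between the pools, the deviations of arrays with the same number correlated with r of 0.04, -0.11 and 0.27. Arrays with different numbers were not compared, so that these values cannot decide whether the numbers pair the pools. With the array number as a replicate block 9 B cell genes were lower and 1 differed from the mean, and over all probes 446 were lower and 173 higher. The muscle list then had 5 genes lower.

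The technical spread of 3 arrays limits all tests, and Cd22 is limited further by its dim signal. 1 pool a group leaves the spread between mice unmeasured.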
